A study of Homo sapiens with 4 samples.

Results

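Box C/D small nucleolar RNAs (snoRNAs) were examined on 4 arrays of the human cell lines U266, labelled as multiple myeloma cells, and K562, labelled as chronic myeloid leukemia cells. The members were the genes whose symbol in the probe annotation begins with SNORD, apart from SNORD14C, SNORD14D and SNORD14E. Of the 18417 genes with a probe set of their own, 113 were members. U266 cells were harvested 2 h after DMSO vehicle or atovaquone at 15 µM. K562 cells were harvested 5 h after vehicle or atovaquone at 20 µM, so line, dose and time differ together and cannot be told apart. Each condition was hybridised once: no ratio has a replicate, and no test was possible. Atovaquone is an antimalarial hydroxynaphthoquinone that blocks electron transfer in the mitochondrial cytochrome bc1 complex. The labels name no transgene or mutation introduced into either line.

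Box C/D snoRNAs are short nuclear RNAs that carry the C and D box motifs, bind the proteins fibrillarin, NOP56, NOP58 and SNU13, and guide 2′-O-methylation of ribosomal and spliceosomal RNA by base pairing. Most human members are encoded inside introns of a host gene, are released when the spliced intron is debranched, and are trimmed by exonucleases up to the bound proteins. Many hosts encode ribosomal or other translation proteins, whereas others, such as GAS5, ZFAS1 and the SNHG genes, yield spliced RNAs with little coding potential, several of which are known substrates of nonsense-mediated decay. The SNORD115 and SNORD116 repeats of the SNHG14 transcript in the Prader-Willi region and the SNORD113 and SNORD114 repeats of MEG8 lie in imprinted clusters, in which 1 parental allele is expressed.

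Members were sorted by the gene whose span contained them. Ribosomal protein genes held 21 members, SNHG14 and MEG8 46, the other non-coding hosts 19 and the other protein-coding hosts 25, while SNORD13 and SNORD32B lay in no other gene. The split of the non-coding hosts into the imprinted clusters and the rest was made after the values were seen. Gene lengths ran from 60 to 205 nucleotides with a median of 81.

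The start sites of the hosts are shown first because many snoRNA hosts are known to begin with a cytosine and a run of pyrimidines, the 5′ terminal oligopyrimidine (TOP) motif of translation-related transcripts. A start was counted as TOP-like where the annotated first base was C and opened an unbroken run of at least 5 C or T letters, read on the gene's own strand only. RefSeq starts on GRCh38.p14 were listed for 34 of the 42 hosts, and 12 of the 34 (35.3%) were TOP-like, compared with 4.07% of the 35116 listed genes. TOP-like starts were found for 4 of 6 ribosomal protein hosts, 4 of 9 other non-coding hosts and 4 of 18 other protein-coding hosts. The sequences below run from 10 bases before the annotated start through its first 20 bases, 5′ to 3′, and capitals mark the pyrimidine run that begins at the start. The first 3 belong to the non-coding hosts of the snoRNAs furthest below vehicle in K562.
SNHG5 (chr6:85678714-85678743, minus strand): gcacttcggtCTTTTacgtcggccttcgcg
SNHG32 (chr6:31834906-31834935, plus strand): cattttagttCTTTTTgcgaagtgggctcg
ZFAS1 (chr20:49278632-49278661, plus strand): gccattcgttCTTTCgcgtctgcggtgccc
GAS5 (chr1:173869026-173869055, minus strand): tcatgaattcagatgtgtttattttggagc
SNHG1 (chr11:62855866-62855895, minus strand): gagattcgttctcatttttctactgctcgt
RPL13A (chr19:49487598-49487627, plus strand): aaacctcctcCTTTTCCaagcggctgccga
RABGGTB (chr1:75786246-75786275, plus strand): cctgctctctCCTTTCCCTgttagacatgg
The ribosomal protein gene RPL13A and RABGGTB, which encodes a subunit of the Rab geranylgeranyl transferase, are shown as hosts of several measured snoRNAs in the other classes. The annotated starts of GAS5 and SNHG1 did not meet the rule, and no other C in their printed windows opened a run of 5. Starts outside these windows were not examined. The match is a description of letters at annotated starts.

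The deposited values are linear intensities, 1 per probe set, with array medians between 314 and 340 over all 33252 probe sets. A member was taken as measured in a comparison when it reached the 40th percentile of the 21214 annotated probe sets on both arrays. This was an intensity floor of 305 to 331. When the floor was reached on only 1 array, the ratio is given as a bound. A ratio is the centred log2 difference between arrays of the same line. For genes with 2 probe sets, log2 ratios from the pair scattered by 0.16 (SD of their difference, 352 genes) in U266 and by 0.17 (370 genes) for K562, which measures disagreement between probes and not between cultures. Markers matched the labels: all 8 plasma cell markers were higher in vehicle U266, with JCHAIN at 10691 against 49.3, and all 6 erythroid markers with a value were higher in vehicle K562, with the embryonic globin HBZ at 6725 against 370. Of 6 markers of other cell types, 6 passed the floor in vehicle K562, led by LYZ at 3113 and the epithelial EPCAM at 1975, and 2 did so in vehicle U266.

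In K562, the snoRNAs of non-coding hosts outside the imprinted clusters had lower intensities with atovaquone. Of the 55 measured members, 7 were at least 1.5-fold lower, compared with 0.697% of the 10756 genes measured, and none was at least 1.5-fold higher (1.42% of genes). At 2-fold, 2 were lower (0.13% of genes) and none higher (0.26%). When no floor was set, 20 were at least 1.5-fold lower and 8 higher. All 7 belonged to the 15 measured members of GAS5, SNHG5, SNHG32, ZFAS1 and similar hosts. Of those 15, 14 were below vehicle, with a median log2 ratio of -0.51. In RNA from a whole culture, fewer cells of a type and less RNA per cell cannot be told apart.

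SNORD50B and SNORD50A lie in SNHG5 and guide methylation of the large ribosomal RNA. SNORD50B read 983 with vehicle and 393 with atovaquone in K562, 2.49-fold lower, and 461 and 325 in U266. It was the member furthest below vehicle in K562 (log2 ratio -1.32). SNORD50A, of the same host, read 1585 and 1122 in K562 (-0.49), and 1258 and 1335 in U266. SNORD52, in SNHG32, read 1626 and 717 in K562, 2.26-fold lower, beside 1436 and 1582 in U266. SNORD12C, in ZFAS1, read 1051 and 540 in K562, 1.94-fold lower, and 598 and 417 in U266. SNORD50B and SNORD12C therefore read lower with atovaquone in both lines, whereas SNORD52 was below vehicle only on the K562 pair of arrays. In U266 neither passed 1.5-fold, and SNORD50B with atovaquone, at 325, barely reached that array's floor of 324.

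GAS5, a growth-arrest-associated non-coding transcript, held 7 members, and the 6 measured in K562 were all below vehicle, with a median log2 ratio of -0.63. SNORD75 read 2181 and 1162 in K562, 1.87-fold lower. SNORD81 read 2084 and 1249, 1.66-fold lower. SNORD78 read 3155 and 2017, and SNORD44 2542 and 1653, 1.56-fold and 1.53-fold lower. The seventh, SNORD77, read 512 with vehicle and 290, under the floor, with atovaquone, so it was at least 1.67-fold lower. The other GAS5 members were nearer to vehicle: SNORD79 had a log2 ratio of -0.37 and SNORD74, the brightest of the class, -0.30, with 4909 and 3968. The same 6 in U266 had a median of 0.02 and ran from -0.41 for SNORD75, with 1532 and 1145, to 0.41 for SNORD79, with 1677 and 2219. GAS5 snoRNAs thus lay on both sides of vehicle in U266 and on 1 side in K562. Since 4 of the 7 members past 1.5-fold share this host, they are not independent; without the GAS5 members, 3 others remained past 1.5-fold.

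By host, the median ratio of the snoRNAs was below vehicle in K562 for 7 of the 8 other non-coding hosts. For 4 it was at least 1.5-fold lower. Of all measured genes, 5501 of 10756 were below vehicle and 0.697% at least 1.5-fold lower. SNHG32, ZFAS1, SNHG19, SNHG25 and SNHG29 had 1 measured snoRNA each, so this count largely repeats the count by member. These medians ran from -1.18 for SNHG32 to 0.04 for SNHG25. SNHG1 contributed SNORD28 (-0.40, with 3798 and 2876) and SNORD30 (-0.43, with 2516 and 1855), and SNHG19 contributed SNORD60 (-0.51, with 820 and 572). The exceptions were SNORD49A of SNHG29, at -0.01 with 758 and 749, and SNORD104 of SNHG25, at 0.04 with 1945 and 1987. Lower intensity was thus shared by the snoRNAs of most, not all, of these hosts. Among them were hosts with and without a TOP-like annotated start. Other starts were not examined, and a relation to the motif was not tested.

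**Figure D1:**
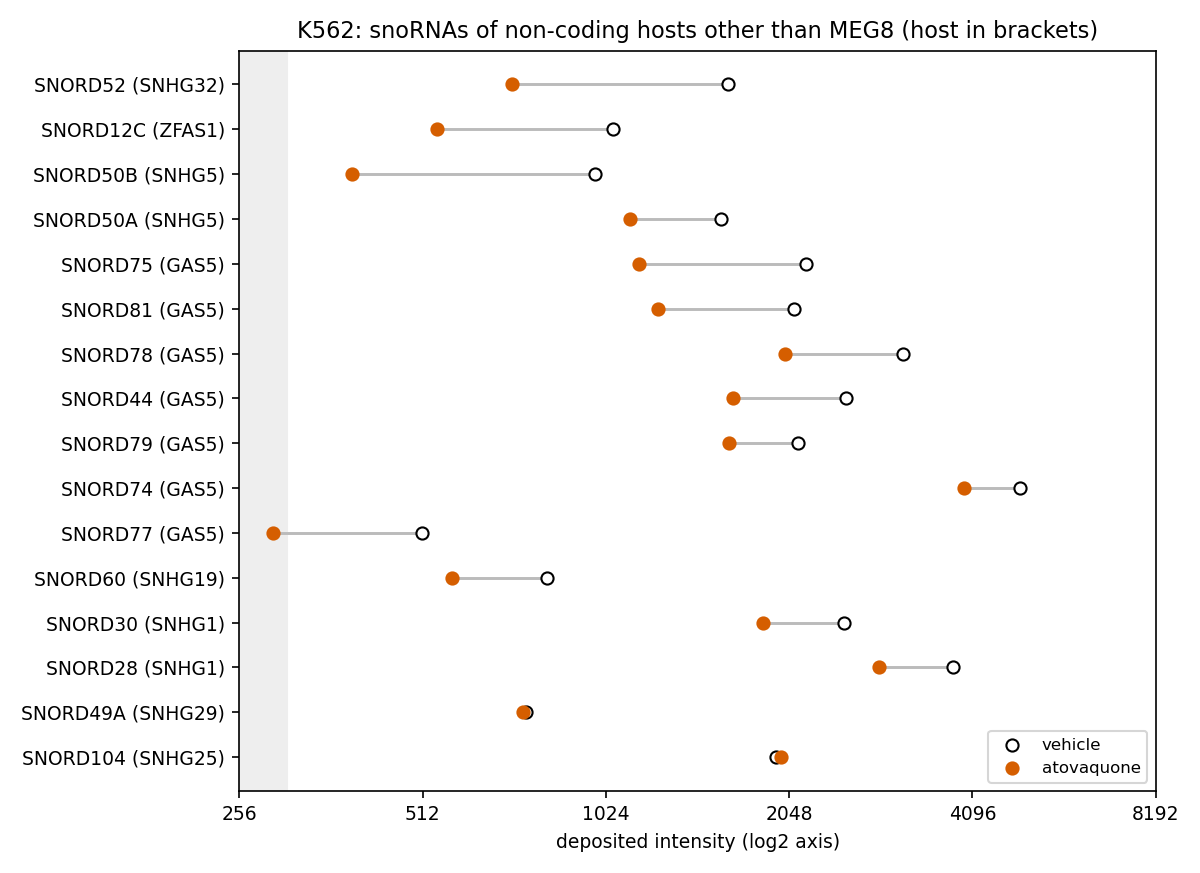
Deposited intensity (log2 axis) of the 16 snoRNAs of non-coding hosts other than MEG8 that reached the floor on at least 1 K562 array, with vehicle (open) and 20 µM atovaquone for 5 h (filled), 1 array each, and the zone under the floor in grey. SNORD50B moves from 983 to 393 and SNORD52 from 1626 to 717, whereas SNORD49A and SNORD104 stay within 0.04 log2 units of vehicle.

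The other classes lay closer to vehicle in K562. None of the 17 measured members of ribosomal protein hosts passed 1.5-fold. Their median was -0.18, 10 were below vehicle and 7 above, and they ran from -0.52 for SNORD54 of RPS20 to 0.13 for SNORD33 of RPL13A. The 16 measured members of other protein-coding hosts had a median of -0.0018, with 8 on each side. SNORD96A of RACK1, a ribosome-bound scaffold protein, was the lowest at -0.54, with 591 and 406. SNORD51 of the elongation factor gene EEF1B2 followed at -0.51. The highest ratios in K562 were those of SNORD117 in the RNA helicase gene DDX39B (0.37, with 361 and 466), SNORD114-26 (0.37) and SNORD113-4 (0.35) in MEG8, SNORD59B in ATP5F1B (0.22) and SNORD32B (0.22). Over all members the median was -0.14, with 34 below and 21 above vehicle, compared with a median of -0.0057 over all measured genes.

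**Figure D2:**
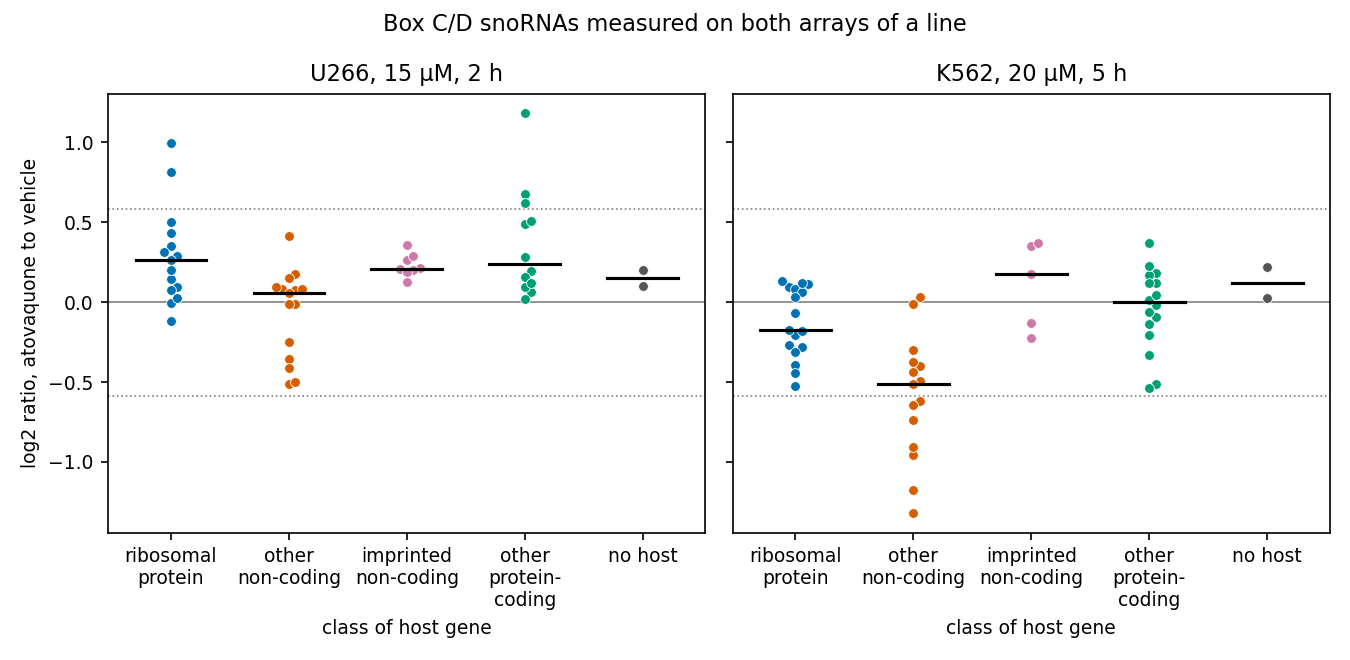
Centred log2 ratio of atovaquone to vehicle for each Box C/D snoRNA measured on both arrays of a line, by class of host gene, with U266 on the left and K562 on the right. Bars are class medians and dotted lines mark 1.5-fold. The other non-coding class has a median of 0.06 in U266 and -0.51 in K562, and the 5 points above the upper dotted line belong to U266.

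In U266, the members past 1.5-fold were higher with atovaquone and had protein-coding hosts. Of 52 measured members, 5 were at least 1.5-fold higher, against 0.857% of the 10731 genes measured, and none was at least 1.5-fold lower (0.0932% of genes). The count of 5 depended on the floor: it was 11 at the 20th percentile, 21 when no floor was set and 0 at the 60th percentile. At 2-fold, 1 was higher (0.326% of genes) and none lower (0% of genes). The median over members was 0.17, with 43 above vehicle and 9 below, beside -0.0001 over all measured genes. Over all measured genes, 5361 of 10731 were above vehicle. All 12 measured members of other protein-coding hosts were above vehicle, with a median of 0.24. They include SNORD13P3, whose host KIF9 was assigned by span alone. Of 15 members of ribosomal protein hosts, 13 were above vehicle, with a median of 0.27. The 15 members of other non-coding hosts were split 8 to 7, with a median of 0.06.

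ATP5F1B encodes the beta subunit of mitochondrial ATP synthase and holds SNORD59A and SNORD59B. SNORD59B read 333 with vehicle and 751 with atovaquone in U266, 2.27-fold higher, and 464 and 541 in K562. SNORD59A read 276, under the floor, and 618 in U266, at least 1.88-fold higher, and 411 and 461 in K562. Both snoRNAs of this host were above vehicle in each line, further so in U266. Among ribosomal protein hosts, SNORD58A of RPL17 read 364 and 722 in U266, 2.00-fold higher, and 682 and 740 in K562. SNORD54 of RPS20 read 512 and 894 in U266, 1.76-fold higher, but 581 and 403 in K562. SNORD58A was above vehicle in both lines, and SNORD54 on opposite sides.

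SNORD51 of EEF1B2 read 386 and 615 in U266, 1.60-fold higher, and 549 and 384 in K562, 1.43-fold lower. SNORD53 of WDR43, a ribosome biogenesis factor, read 412 and 629 in U266, 1.54-fold higher, and 606 and 580 in K562. Bounds past 1.5-fold were found for SNORD21 of RPL5 (312 and 551, at least 1.68-fold), SNORD82 of the nucleolin gene NCL (296 and 503, at least 1.53-fold) and SNORD117 of DDX39B (215 and 499, at least 1.52-fold). The vehicle reading of each of these, and of SNORD59A, was under the floor. Members with such a bound reached the floor with atovaquone alone, a selection that favours higher ratios. Of 113 members, 10 had one in U266 and 4 were past 1.5-fold, beside 21 past it among all 18417 genes. The 0.857% of genes given for U266 covers only those measured on both arrays and is no comparison for these bounds. None of the 30 members at or over an intensity of 1000 with vehicle was 1.5-fold higher in U266, whereas 5 of the 22 under 1000 were. Over all measured genes, 30 of 5347 at or over 1000 and 62 of 5384 under it were 1.5-fold higher. The medians of these bands were 0.12 and 0.23, and over all genes -0.0099 under 1000 and 0.008 over it. Spearman's rho between ratio and vehicle intensity was -0.31 over the 52 members, whose ratio and x value share the vehicle array, and 0.05 over all measured genes. The part of low intensity in these ratios was not tested.

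**Figure D3:**
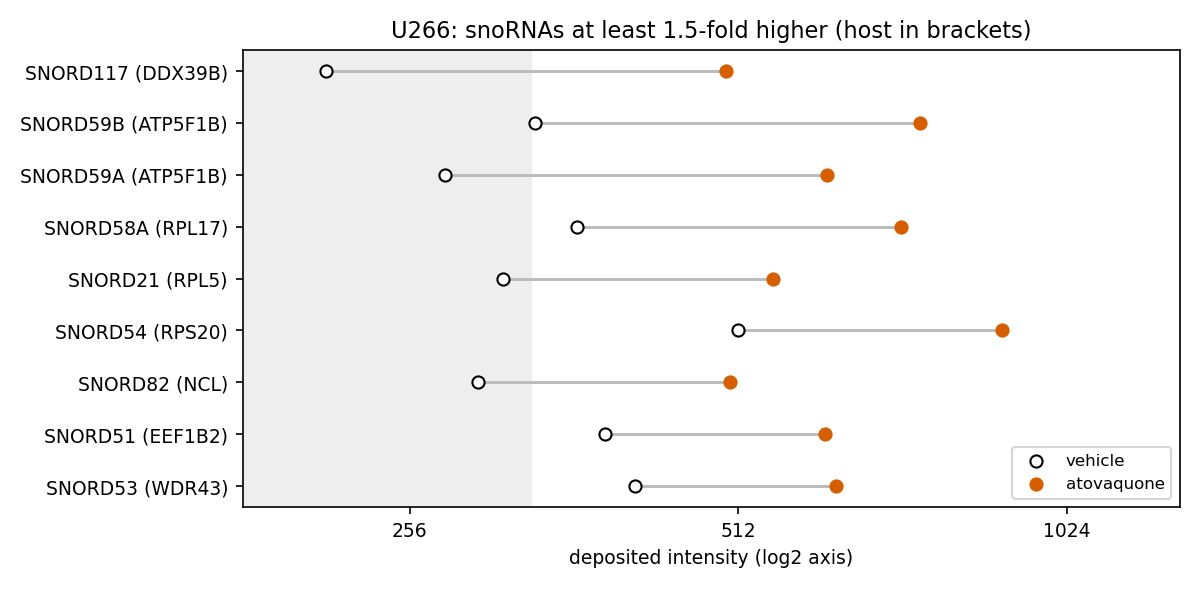
Deposited intensity (log2 axis) of the 9 snoRNAs at least 1.5-fold higher in U266 with 15 µM atovaquone for 2 h (filled) than with vehicle (open), 1 array each, with the zone under the higher of the pair of floors in grey. SNORD117, SNORD59A, SNORD21 and SNORD82 start in the grey zone and so have lower bounds, which are outside the count of 5 measured members. Vehicle values do not exceed 512.

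The lowest ratios in U266 were those of SNORD12C (-0.51) and SNORD50B (-0.50), both among the members past 1.5-fold in K562, followed by SNORD75 (-0.41), SNORD30 (-0.35) and SNORD81 (-0.25). All 5 have non-coding hosts. Of the 44 members measured in both lines, 41 had a higher ratio in U266 than in K562, beside 51.1% of the 9222 genes measured in both. This held for 15 of 15 members of other non-coding hosts, 14 of 15 of ribosomal protein hosts and 11 of 12 of other protein-coding hosts. Spearman's rho between the ratios of both lines was 0.46 over these 44 members, which share hosts. Members that lay low in 1 line thus tended to lie low in the other, about a different centre.

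Members of 1 host did not always keep together. The 4 snoRNAs of RPL13A, SNORD32A, SNORD33, SNORD34 and SNORD35A, ran from 0.09 for SNORD33 to 0.35 for SNORD35A in U266, and from -0.39 for SNORD34 to 0.13 for SNORD33 in K562. In RPL23A they ran from -0.12 for SNORD4A to 0.50 for SNORD4B in U266, and from -0.31 for SNORD4B to 0.12 for SNORD42A in K562. RABGGTB members lay between 0.09 for SNORD45C and 0.49 for SNORD45B in U266. In K562 they lay between -0.14 for SNORD45C and 0.05 for SNORD45A. SNORD4B, the highest of its host in U266, was the lowest of it in K562.

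The brightest members varied little with atovaquone. SNORD13, which has its own promoter and acts in the maturation of small-subunit ribosomal RNA, read 6802 and 7246 in U266 and 6524 and 6613 in K562. SNORD33 read 5948 and 6301, then 6188 and 6756. SNORD57 of NOP56, whose protein is a core component of the same particles, read 6366 and 6424, then 6759 and 7333. SNORD41 of TNPO2 read 5715 and 6512, then 5470 and 5500. The log2 ratios of these 4 lay between 0.01 and 0.20. SNORD13P3, a pseudogene copy of SNORD13, read 6351 and 6596, then 5950 and 5863, but cannot be separated from its parent with confidence. SNORD32A and SNORD36B, the next brightest of ribosomal protein hosts, had ratios of 0.29 and 0.43 in U266 and 0.07 and 0.03 in K562. SNORD28 and SNORD78, next to SNORD74 among the non-coding hosts, had 0.09 and 0.06 in U266. Brightness and steadiness did not go together in that class in K562, where SNORD78 was past 1.5-fold.

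Host transcripts were compared where the host had a probe set of its own; GAS5, SNHG1, SNHG5, SNHG32, SNHG14 and MEG8 shared theirs with other symbols and were not used. In U266, 19 measured members had 14 measured hosts, whose ratios lay between -0.06 and 0.22, none past 1.5-fold. The members' median was 0.32 beside 0.08 for their hosts, and 14 of 19 lay above their host, including 8 of 8 with other protein-coding hosts. ATP5F1B had a ratio of 0.06 where SNORD59B had 1.18. RPL17 had 0.16 where SNORD58A had 1.00, and RPS20 had 0.12 where SNORD54 had 0.81. In these 3 pairs the host message lay nearer to vehicle than the snoRNA probe set, whereas SNORD43 (-0.0078) and SNORD83B (0.03) lay nearer to it than their host RPL3 (0.09). The 3 snoRNAs were far dimmer than their hosts in vehicle U266: 333 beside 8093, 364 beside 2566 and 512 beside 6342. The part of intensity in these differences was not tested.

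In K562, 23 members had 16 measured hosts with ratios from -0.41 to 0.15, and 10 members lay above their host and 13 below. Of 11 members of ribosomal protein hosts, 8 lay below their host, with a member median of -0.18 beside host ratios of 0.04 to 0.15. Of 10 members of other protein-coding hosts, 7 lay above theirs, among them SNORD41 (0.01) beside TNPO2 (-0.41). ZFAS1 itself had a ratio of -0.24, with 4197 and 3537, where SNORD12C had -0.96. Spearman's rho between member and host ratios was 0.06 over the 19 pairs in U266 and 0.12 over the 23 in K562; members of a host share its value. RNA had been purified on an RNeasy column, whose standard protocol retains short RNA poorly, so signal of mature snoRNA and of unspliced host RNA cannot be told apart on these probe sets.

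**Figure D4:**
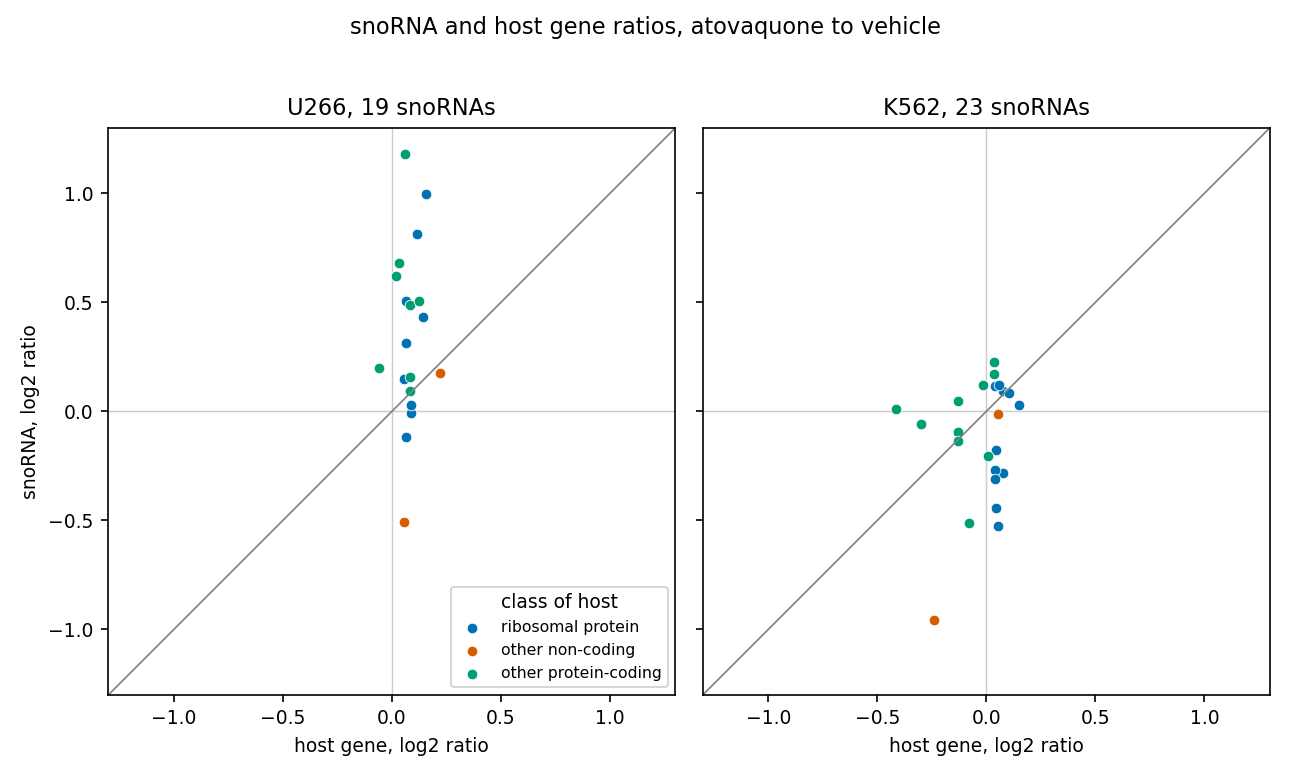
Centred log2 ratio of each measured snoRNA (y axis) against that of its host gene (x axis), atovaquone to vehicle, for 19 snoRNAs in U266 and 23 in K562; colours give the class of host and the diagonal marks equal ratios. Host ratios keep within -0.06 and 0.22 in U266, where snoRNAs reach 1.18, and SNORD12C is the lowest point in both panels.

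The imprinted clusters separated the lines. Of 20 SNORD116 members, 8 were measured in U266 and none reached the floor in K562. Over all 18417 genes, 1515 reached the floor on the vehicle array of U266 alone and 1576 on that of K562 alone. SNORD116-15 read 4870 and 5282 in U266 against 78.4 and 75.0 in K562, so vehicle U266 was at least 16.2-fold higher. SNORD116-20 read 3605 and 4135 against 34.2 and 28.4, and SNORD116-14 read 3587 and 4130 against 14.0 and 12.7, each at least 12.0-fold higher. The remaining bounds were at least 5.56-fold for SNORD116-24, 4.65-fold for SNORD116-1, 4.59-fold for SNORD116-23, 4.02-fold for SNORD116-21 and 2.23-fold for SNORD116-6. The copies are near-identical repeats, so signal may be shared among their probe sets. All 20 SNORD115 members, from the same SNHG14 transcript, were under the floor on all 4 arrays, with none above 55.8.

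The MEG8 snoRNAs had the opposite distribution. Of 6 members, 5 were measured in K562 and none reached the floor in U266. SNORD114-3 read 58.0 and 47.0 in U266 and 2386 and 2683 in K562, so vehicle K562 was at least 7.09-fold higher. SNORD113-4 read 8.57 and 15.9 against 1533 and 1948, at least 4.56-fold higher in K562. SNORD114-26 read 66.5 and 61.6 against 1497 and 1927, at least 4.45-fold higher. SNORD114-2 and SNORD113-3 had bounds of 2.63-fold and 1.77-fold. MEG3 and DLK1, genes of the same imprinted cluster, read 3193 and 2237 in vehicle K562 and 129 and 325, both under the floor, in vehicle U266.

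With atovaquone, imprinted members stayed within 1.5-fold of vehicle. The 8 SNORD116 members measured in U266 were all above vehicle, from 0.13 for SNORD116-15 to 0.36 for SNORD116-21, with a median of 0.21. The 5 MEG8 members in K562 ran from -0.23 for SNORD114-2 to 0.37 for SNORD114-26, with a median of 0.17. With the imprinted clusters included, the non-coding hosts had a median of 0.10 over 23 members in U266 and -0.42 over 20 in K562.

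**Figure D5:**
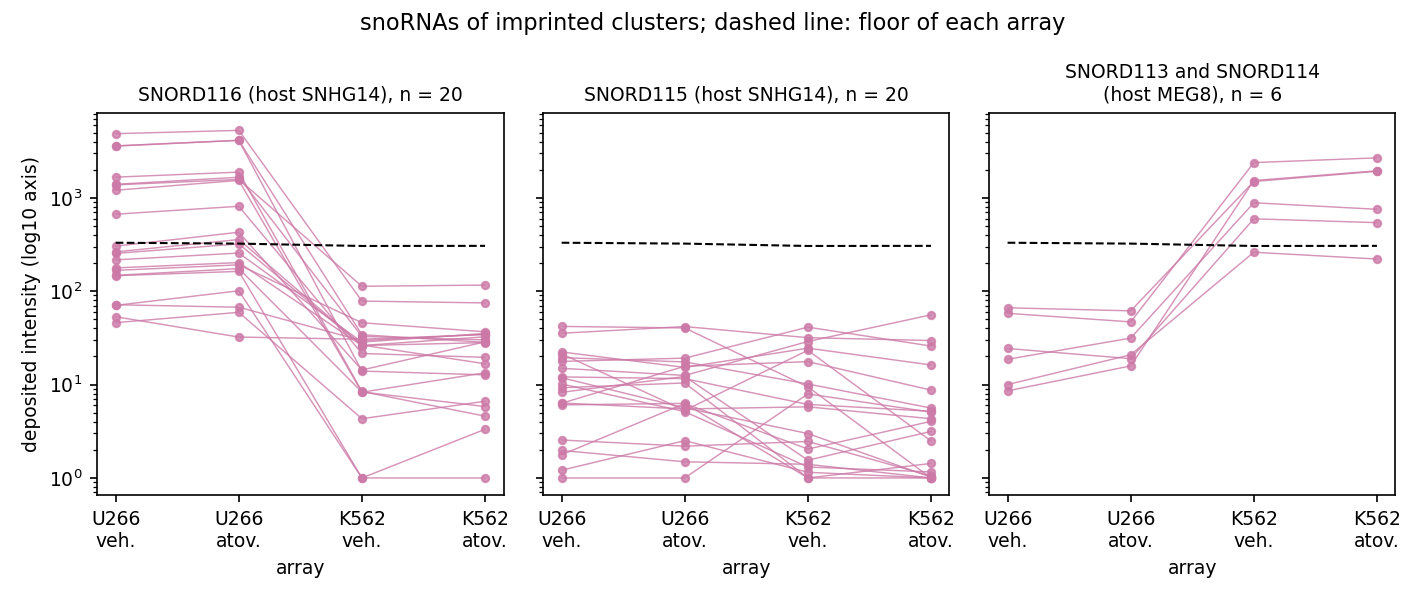
Deposited intensity (log10 axis) on the 4 arrays of the 20 SNORD116, 20 SNORD115 and 6 SNORD113 and SNORD114 snoRNAs; each line joins 1 snoRNA across arrays and the dashed line is each array's floor. SNORD116 members pass the floor in U266 alone, up to 5282, MEG8 members in K562 alone, up to 2683, and SNORD115 members on none of the 4 arrays.

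Outside the imprinted clusters, vehicle levels leaned towards K562. Of 44 members measured on both vehicle arrays, none was at least 1.5-fold higher in U266 (17.7% of the 9483 genes measured) and 12 were at least 1.5-fold lower (16.2% of genes), with a median of -0.36 beside -0.0071 over all genes. At 2-fold, 1 was lower (6.97% of genes) and none higher (7.97%). The count of 12 was 36 when no floor was set, where 29 were higher, and 6 at the 60th percentile. The lowest were SNORD50B (-1.07), SNORD49A (-0.93), SNORD58A (-0.88), SNORD30 (-0.83) and SNORD35A (-0.81). The highest were SNORD32B (0.46), SNORD104 (0.28), SNORD95 (0.22), SNORD13P3 (0.12) and SNORD41 (0.09). Of 13 members over the floor in vehicle K562 alone, the 5 MEG8 members were past 1.5-fold, as were SNORD96A, SNORD15A and SNORD77. The latter were at least 1.76-fold, 1.72-fold and 1.52-fold lower in U266. Over all genes, 689 of the 1576 over the floor in vehicle K562 alone had a bound past 1.5-fold. The ratios of the 7 K562 members named above ran from -0.15 to -1.07 in this comparison, which shares the K562 vehicle array with theirs. EEF1B2 was higher in vehicle U266 (1.92, with 2221 against 598), whereas its SNORD51 was lower (-0.48).

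The measured messages for proteins that bind or process these RNAs stayed within 1.5-fold of vehicle. NOP56 and SNU13 shared probe sets with other symbols and gave no value. Over all measured genes, 0.857% were at least 1.5-fold higher and 0.0932% lower in U266. In K562 these shares were 1.42% and 0.697%, so lists as short as these may hold none past it. Fibrillarin (FBL), the methyltransferase of the particle, had ratios of 0.09 in U266 and 0.03 in K562, and NOP58, another core protein, 0.25 and -0.14. Of 11 assembly factors none passed 1.5-fold in either line; they ran from -0.05 (RPAP3) to 0.12 (NUFIP1) in U266 and from -0.40 (NUFIP1) to 0.23 (RPAP3) in K562. Of 18 genes for intron debranching, exonucleolytic trimming and decay, none passed 1.5-fold, from -0.05 (EXOSC7) to 0.16 (DIS3) in U266 and from -0.55 (EXOSC4) to 0.29 (EXOSC8) in K562. Of 11 genes of nonsense-mediated decay none passed it, from -0.40 (SMG9) to 0.13 (SMG8) in U266. In K562 they ran from -0.36 (SMG8) to 0.20 (CASC3), with 10 of 11 below vehicle, compared with 5501 of the 10756 genes measured.

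The H/ACA snoRNAs, which mainly guide pseudouridylation, and the Cajal body RNAs offer the nearest comparison. This family was taken as the genes with a SNORA or SCARNA symbol and was not split by box motif. Of 48 measured in U266, 8 were at least 1.5-fold higher (0.857% of all genes) and none lower (0.0932%), with a median of 0.29. Of 42 in K562, none was higher (1.42% of all genes) and 1, SNORA74A, was lower (-1.09; 0.697%), with a median of 0.06. Higher ratios in U266 were therefore also seen in this family, while its K562 median lay above the -0.14 of the C/D members; the difference was not tested. The messages of ribosomal proteins had medians of 0.08 and 0.07, with none past 1.5-fold. The excluded SNORD14C read 2345 and 7450 in U266 and 3980 and 1859 in K562, and SNORD14E 366 and 2411, then 917 and 321.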

How the data were processed

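Total RNA from 4 cultures was labelled as biotinylated cRNA and hybridised to Affymetrix Human Gene ST arrays, per the labels and the probe annotation. The authors deposited 1 linear intensity per probe set; the sources used here do not name the background correction, normalisation or software. Of 21214 annotated probe sets, 19460 name 1 symbol and were used, taking the brightest per gene; 49 name a SNORD symbol beside others and were left out, as were 64 SNORD symbols with no other probe set, among them SNORD3A, SNORD14A and SNORD14B, while SNORD118 has no value here. Log2 ratios were centred on the median of probe sets over each array's 40th percentile (shifts of -0.0096 in U266, -0.0048 in K562 and -0.025 between lines). With 1 array per condition nothing was tested, and members were counted past 1.5-fold. Hosts came from containment in the RefSeq gene table, which was read without strand, and a hand list; both named the host of 103 members and the table alone that of 8. The members of a host, and 5 members under several genes, share sequence context. Members and lists were chosen with earlier results of these data known. Named members are those past 1.5-fold, the 5 highest and lowest per comparison, the 3 brightest per host class and the extremes of hosts with at least 3 measured members. Alternatives were quantile normalisation, no centring, floors at none, the 20th and the 60th percentile, the mean of probe sets and a 2-fold threshold. The ratio code was checked on simulated data. Python 3.11.15, numpy 2.4.6, pandas 2.3.3, scipy 1.17.1 and matplotlib 3.10.9 were used. The number of arrays limits the precision.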

Additional observations from a re-analysis of the deposited data

Results flagged for a closer look

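The medians given here of the atovaquone to vehicle log2 ratio had opposite signs in the lines. Those of the imprinted class (0.21 in U266 and 0.17 in K562) and of the members without a host (0.15 and 0.12) did not. The imprinted medians share no member: they cover 8 SNORD116 members in U266 and 5 MEG8 members in K562. These differences were not tested, and dose and time also differ between the lines. The median over all members was 0.17 in U266 and -0.14 in K562. For ribosomal protein hosts it was 0.27 and -0.18. For all non-coding hosts it was 0.10 and -0.42, and for those other than SNHG14 and MEG8 it was 0.060 and -0.51. For other protein-coding hosts it was 0.24 and -0.0018. The latter had 8 members on each side of vehicle and lay beside a median of -0.0057 over all genes measured in K562. Among members that lay apart from vehicle in opposite directions, SNORD51 had 0.68 in U266 and -0.51 in K562. SNORD54 had 0.81 and -0.52, and SNORD79 had 0.41 and -0.37.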

How the results depend on the processing

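The counts past 1.5-fold moved most with the floor. With no floor, 21 members were higher and 5 lower in U266, 8 higher and 20 lower in K562, and 29 higher and 36 lower in vehicle U266 against vehicle K562. With the floor at the 20th percentile, 11 were higher in U266 and 1 in K562. At the 60th percentile none (0) was higher in U266 and 6 were lower in vehicle U266 than in vehicle K562. At 2-fold, 1 member was higher in U266, 2 were lower in K562, both of non-coding hosts outside the imprinted clusters, and 1 was lower in vehicle U266. Without the GAS5 members, an alternative chosen after seeing the data, 3 were lower in K562, all of such hosts. Quantile normalisation, no centring, the mean of probe sets and, added after seeing the data, the inclusion of probe sets of several symbols kept these counts within 1.5 times. The K562 median of non-coding hosts outside the imprinted clusters stayed between -0.47 and -0.52 over the floors, normalisations and centring tried. Of the values for single classes and members under these alternatives, 518 kept within the limits set and 95 moved. Changes of sign were limited to the vehicle comparison, where the median of all non-coding hosts was 0.04 with no floor and SNORD58A had only a bound, of 0.02, with the floor at the 60th percentile. Signal over background limits 51 members in U266 and 55 in K562 that were under the floor on both arrays. No paired analysis was possible because each condition has 1 array.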
